A study of Mus musculus with 7 samples.

Results

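34 genes of glycolysis and of the response to low oxygen were followed through the cells of a mouse glioma: 4 transporters, 10 genes of upper glycolysis, 6 of lower glycolysis, both lactate dehydrogenase subunit genes, 3 regulators of the pathway, both HIF alpha subunit genes and 7 hypoxia targets. They were taken as a named list of pathway genes and all 34 were found among the 55491 gene rows of the UMI matrix, each with at least 1 UMI. Levels are given in CPM, the UMIs of a gene divided by all UMIs of the same cells and multiplied by 1000000, after summing per mouse and annotated cell type. Microglia were compared with monocyte-derived cells (the annotated monocytes and macrophages), with T cells and with tumour or stromal cells. In the fit across all genes, most of the core enzymes were lower in microglia than in each of these classes, while Ldhb, Pfkfb3 and Pdk1 were higher against all 3. Lower and higher calls, those of Ldhb and Pdk1 with them, varied with the settings of the fit, the microglia annotation among them, whereas Pfkfb3 was called higher against all 3 classes in each alternative run. With the main microglia annotation alone, in 3 mice, members were 2 higher and 17 lower, 13 and 11, and 13 and 7 against the classes in this order. All genes there gave 985 and 1524 of 12695, 2197 and 2271 of 9763, and 2669 and 2939 of 9681.

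The data come from 7 mice, 1 library each, engrafted in the brain with 50000 cells of the mouse glioma line CT-2A at 8 to 12 weeks of age. 4 mice (KO) carried the Sall1CreERT2 driver, a tamoxifen-inducible Cre at the Sall1 locus (B6;129-Sall1 tm5(cre/ERT2)Ryn), together with Siglece fl/fl (B6.129P2-Siglece tm1Bcgen), and 3 mice (WT) carried Siglece fl/fl without the driver. Both genotypes received tamoxifen, 2.5 mg per injection, daily from day 7 to day 21 after tumour injection and every other day afterwards. Among immune cells of the brain Sall1 is known as a microglial gene, so the deletion of Siglece, an inhibitory sialic acid receptor, is aimed at microglia. The driver allele was present in the KO mice only, so its own effect and that of the deletion cannot be told apart. The tumour-bearing hemisphere was dissociated at 37 °C for 30 min and stored frozen. After thawing, living cells that stained for CD45, for CD11b or for both were sorted and taken into 5' single-cell RNA sequencing.

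Glycolysis takes up glucose through the transporters of the Slc2a family, phosphorylates it with a hexokinase, splits it through phosphofructokinase and aldolase and ends in pyruvate, which lactate dehydrogenase turns into lactate for export by the Slc16a transporters. At low oxygen the alpha subunits HIF-1 alpha (Hif1a) and HIF-2 alpha (Epas1) are no longer hydroxylated by prolyl hydroxylases, escape degradation and, with their partner ARNT, switch on most of these genes. The alpha subunits are controlled mainly as proteins, so their RNA does not show their activity. Tumour-associated macrophages of hypoxic tissue are known for high glycolytic gene expression, and microglia are the resident macrophages of the brain.

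The matrix held 28644 cells and 207882564 UMIs, with 1410 to 5856 cells and 16037214 to 38966377 UMIs per library. Of 28178 distinct cell barcodes, 460 occurred in more than 1 library. Microglia were few and shallow: 414 cells (113 KO, 301 WT) with a median of 3058.5 UMIs per cell, against 6245 in the 7477 monocyte-derived cells, 4748 in the 13692 T cells and 20569 in the 384 tumour or stromal cells. A mouse entered a comparison with at least 20 cells of each class, which left KO replicate 3 out of every fit of microglia (13 cells) and KO replicates 1 and 3 out of those of tumour or stromal cells (17 cells and 1 cell). KO replicate 2 entered with 21 microglia that held 51086 UMIs, so 1 UMI there equals 19.6 CPM. In microglia Siglece had 2, 1, 0 and 0 UMIs in KO replicates 1 to 4 and 20, 19 and 7 in WT replicates 1 to 3. In CPM this was 10.7, 19.6, 0 and 0 against 36.1, 45.9 and 18.6, so that KO replicate 2 lay above WT replicate 3, and the counts of 0 allow up to 81.3 and 16.7 CPM in KO replicates 3 and 4 (3 UMIs, counting error only). In monocyte-derived cells it lay at 41.0 to 48.7 CPM in KO and 26.6 to 52.9 in WT mice. Markers had their highest level in the class they mark for 9 of 9 genes in microglia and 9 of 9 in T cells, for 7 of 9 in monocyte-derived cells (not Itga4 and Vcan) and for 7 of 10 in tumour or stromal cells (not Sparc, Fabp7 and Ptprz1). Ptprc and Itgam, the genes of CD45 and CD11b, summed to 21.2 ± 11.4 CPM (SD, n = 5) in tumour or stromal cells and to 1095 ± 221 (SD, n = 6) in microglia, although the sort asked for 1 of these proteins. The cell names were derived from the same RNA, by a method not given in the sources used here, and several members may have taken part in it. 1 library is 1 mouse, but the labels do not say whether mice were processed in batches.

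The upstream 250 bases of the RefSeq promoters (table of build GRCm38.p6) were searched for the core of the hypoxia response element, ACGTG or GCGTG on either strand (read as CACGT or CACGC on the other), which overlaps the E-box CACGTG. Of the 34 members 31 had an entry (none for Slc2a3, Epas1 and Ndrg1), and 27 of the 31 (87.1%) held a match in at least 1 promoter, against 41.5% of all 27025 symbols in the table. Counted by promoter, 35 of 44 member promoters (79.5%) and 12679 of 32851 promoters in the table (38.6%) held a match. Median GC content was 60.4% in the member promoters and 52.4% in all, and its part in this difference was not tested. The promoters of 6 members with contrasting levels in microglia are printed 5' to 3' on the strand of the gene, ending at the base before the start site, with matches in capitals. Pgk1 (chrX:106186850-106187099, plus strand), Bnip3 (chr7:138909507-138909756, minus strand) and Ankrd37 (chr8:45999851-46000100, minus strand) were lower in microglia than in tumour or stromal cells and held 2, 5 and 4 match starts, where a palindrome counts on both strands. P4ha1 (chr10:59323046-59323295, plus strand), with 3, and Ldhb (chr6:142507958-142508207, minus strand), with 1, were higher there. Gpi1 (chr7:34230337-34230586, minus strand) was lower and held none.
Pgk1: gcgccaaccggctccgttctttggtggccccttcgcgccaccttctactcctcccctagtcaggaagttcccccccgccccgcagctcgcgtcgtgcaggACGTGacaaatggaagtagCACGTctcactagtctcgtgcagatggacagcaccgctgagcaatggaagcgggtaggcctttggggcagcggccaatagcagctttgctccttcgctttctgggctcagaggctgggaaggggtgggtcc
Bnip3: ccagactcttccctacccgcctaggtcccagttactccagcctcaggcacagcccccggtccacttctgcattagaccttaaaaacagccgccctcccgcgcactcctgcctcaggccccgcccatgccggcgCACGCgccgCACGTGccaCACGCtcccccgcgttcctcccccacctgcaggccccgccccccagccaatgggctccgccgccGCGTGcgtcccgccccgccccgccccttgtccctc
Ankrd37: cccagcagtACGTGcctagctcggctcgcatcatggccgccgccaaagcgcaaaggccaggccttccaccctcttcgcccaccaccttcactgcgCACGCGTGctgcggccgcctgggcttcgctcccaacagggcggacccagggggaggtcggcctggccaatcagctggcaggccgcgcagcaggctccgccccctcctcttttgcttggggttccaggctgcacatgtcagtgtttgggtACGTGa
P4ha1: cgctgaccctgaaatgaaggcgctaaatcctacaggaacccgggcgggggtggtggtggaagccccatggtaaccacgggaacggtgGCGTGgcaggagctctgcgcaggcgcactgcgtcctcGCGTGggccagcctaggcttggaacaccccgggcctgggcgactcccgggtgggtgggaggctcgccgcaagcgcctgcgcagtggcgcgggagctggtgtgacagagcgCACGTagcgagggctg
Ldhb: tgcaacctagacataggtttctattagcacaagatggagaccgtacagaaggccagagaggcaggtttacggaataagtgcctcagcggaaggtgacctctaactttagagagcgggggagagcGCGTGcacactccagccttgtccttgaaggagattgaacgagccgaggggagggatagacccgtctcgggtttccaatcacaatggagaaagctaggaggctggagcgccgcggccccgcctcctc
Gpi1: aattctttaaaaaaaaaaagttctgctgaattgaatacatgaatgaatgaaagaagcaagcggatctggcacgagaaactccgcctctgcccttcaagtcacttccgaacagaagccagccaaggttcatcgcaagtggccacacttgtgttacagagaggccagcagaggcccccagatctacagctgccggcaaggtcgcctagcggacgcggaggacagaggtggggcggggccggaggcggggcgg
A match is a run of letters and not a measured binding site.

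Across the 23 annotated cell types the members did not peak in 1 place. The mean level over mice was highest in tumour or stromal cells for 8 members, in the annotation Microglia (Low-quality/activated) for 7, in Macrophages (P3) for 5 and in Microglia for 2. Macrophages (P3) held the highest levels of Slc2a1, the main glucose transporter of hypoxic and dividing cells, at 246 ± 101 CPM (SD, n = 7), of Gpi1, Aldoa and Tpi1, and of Egln3, a prolyl hydroxylase that is itself HIF-induced, at 95.03 ± 43.8 (SD, n = 7). Tumour or stromal cells led for Pgk1, Pgam1, Eno1, Pkm, Mif, Bnip3, Ankrd37 and Slc16a1. Ndrg1, a hypoxia- and differentiation-linked gene, and Eno2, the neuronal enolase, peaked in cDC2, at 474 ± 121 and 24.1 ± 9.28 (SD, n = 7). These orders are descriptions without a test, and neighbouring types often overlapped: Gpi1 was 589 ± 129 in Macrophages (P3) and 581 ± 59.6 in CD8+ T cells (Precursor-Exhausted) (SD, n = 7).

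**Figure D1:**
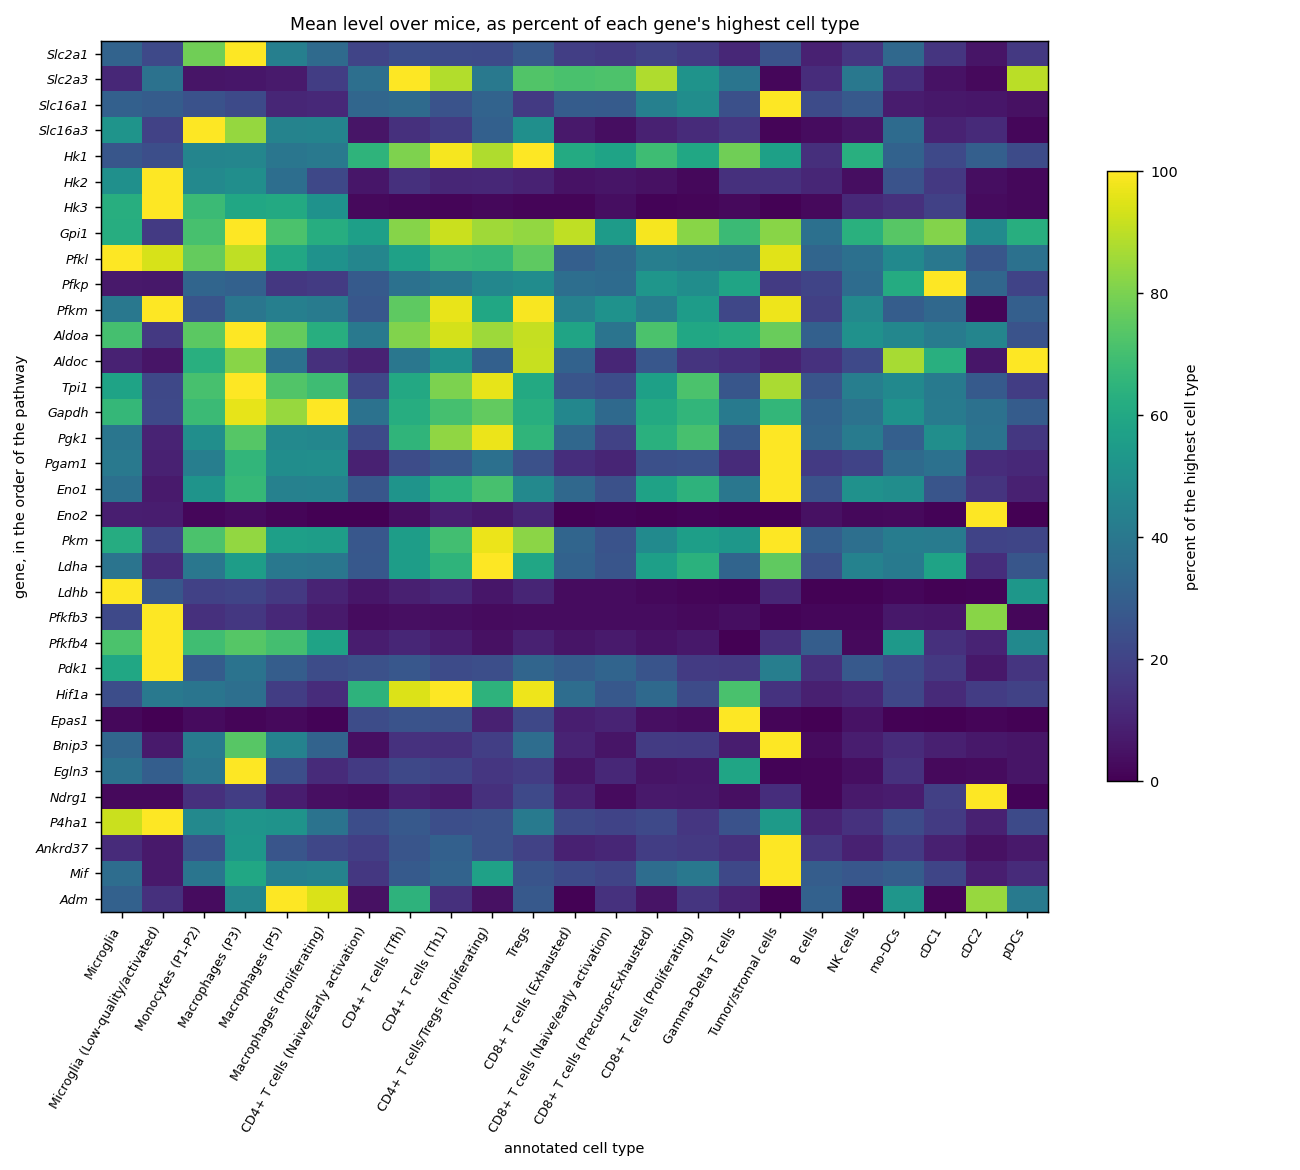
Mean level over mice of each of the 34 genes (rows, in pathway order) in each of the 23 annotated cell types (columns), as percent of the highest type of that gene, so that rows cannot be compared in level. The column of Microglia (Low-quality/activated) is the highest for 7 genes, among them Hk2, Hk3, Pfkfb3 and Pdk1, and the lowest for 10.

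The genes of glucose uptake and phosphorylation differed by isoform. Slc2a1 was 68.1 ± 18.9 CPM in microglia (SD, n = 6) and 161 ± 52.0 in monocyte-derived cells of the same mice. Slc2a3, the high-affinity glucose transporter of lymphocytes and neurons, had 10 UMIs in the microglia of 6 mice and passed the count filter through T cells. Its ratio of pooled levels, microglia over T cells, was 0.208 with an exact 95% interval of 0.0994 to 0.383 for counting error only. Among these genes of uptake and phosphorylation Hk2 and Hk3, the inducible and the myeloid hexokinase, were the main contrast with T cells. Hk2 ranged from 39.1 to 150 in microglia with a median of 96.2 and from 7.46 to 12.6 in T cells with a median of 11.5. Hk3 ranged from 58.7 to 111 in microglia with a median of 85.2 and from 1.18 to 2.75 in T cells with a median of 2.05. Hk1, the housekeeping isoform, went the other way, from 0 to 32.2 in microglia with a median of 21.5 and from 57.9 to 75.1 in T cells with a median of 62.6. For Hk2 and Hk3 the 6 microglial libraries and the 6 T cell libraries did not overlap. The measured values of Hk1 did not overlap either, but the 0 came from KO replicate 2, whose microglia had 51086 UMIs, so that 0 UMIs allow up to 58.7 CPM (3 UMIs, counting error only). Wherever values are said not to overlap, the measured values are meant, and with that limit the separation of this mouse from the lowest library of the other class was not detectable for Aldoc (nor that of KO replicate 4) and Pfkp against monocyte-derived cells, Slc2a3 and Hk1 against T cells, and Ankrd37, Hk1, Ndrg1, Pfkp and Slc16a1 against tumour or stromal cells. The list covers counts of 0 only. Other separations of KO replicate 2 rest on few UMIs, where 1 UMI equals 19.6 CPM. Among them are Slc2a1 at 39.1 CPM against monocyte-derived cells, Hk2 at 39.1 against T cells and Egln3 at 19.6 against tumour or stromal cells. Their counting error was not assessed.

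**Figure D2:**
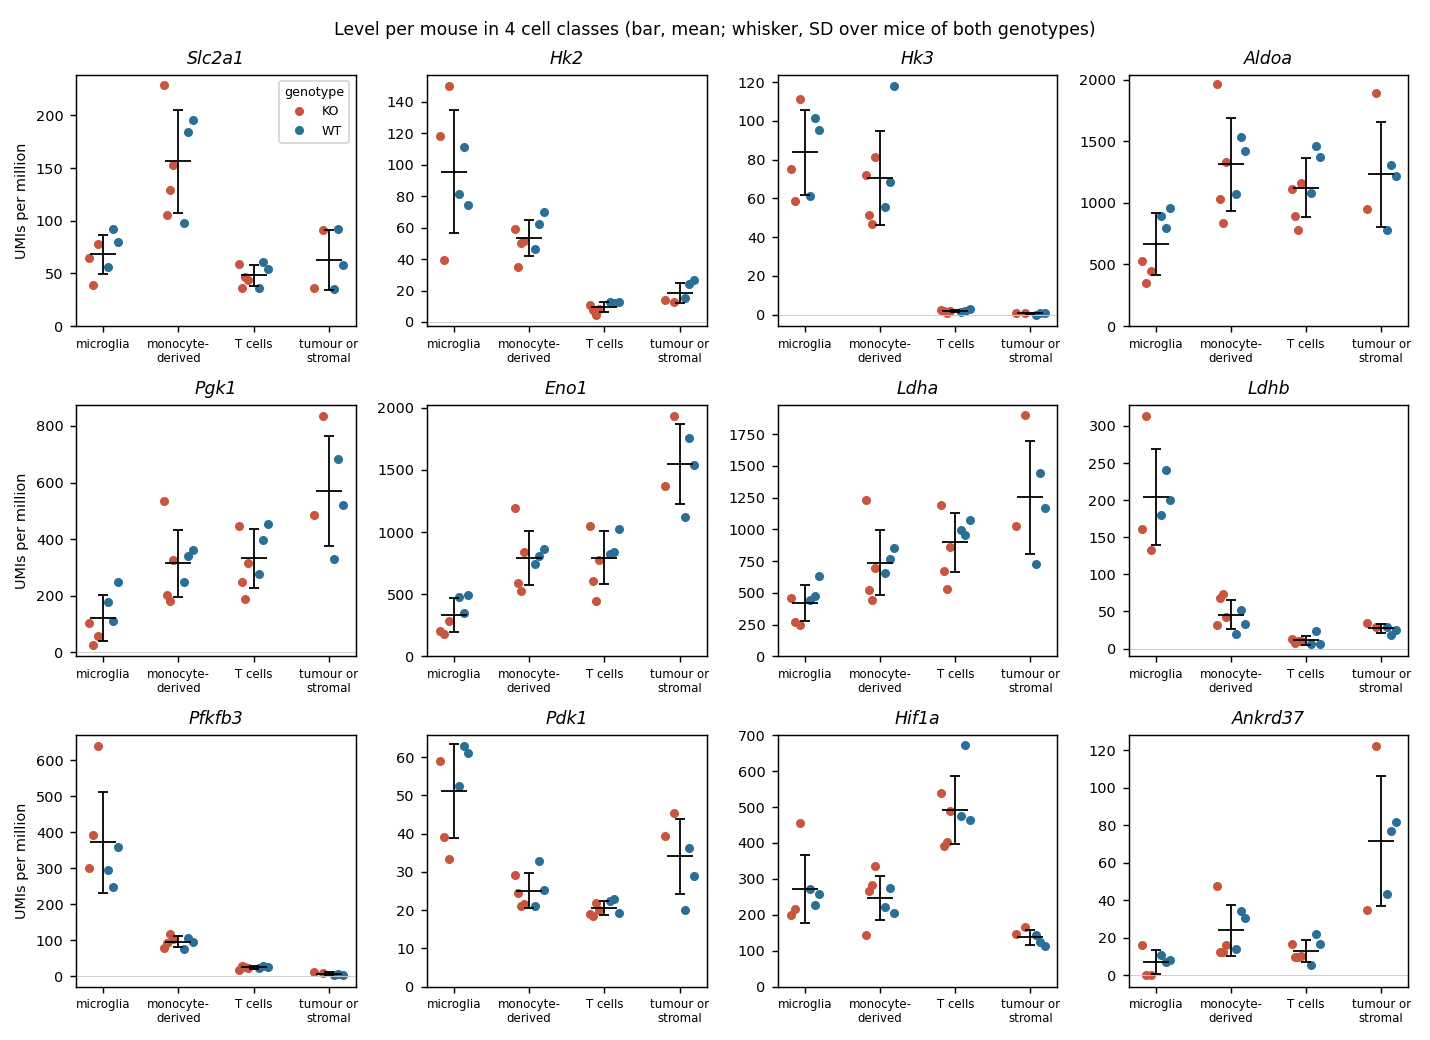
Level of 12 genes in CPM (vertical axes, linear) in the 4 cell classes, 1 point per mouse with at least 20 cells, coloured by genotype, with mean and SD over mice. Ldhb and Pfkfb3 separate microglia from every other class, whereas Aldoa, Pgk1, Eno1 and Ldha are lowest in microglia on average.

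Microglia were compared with monocyte-derived cells within mouse, in 6 mice. Of 32 members tested (Eno2 and Epas1 were below the count filter) 3 were higher in microglia and 20 lower at an adjusted p under 0.05 (edgeR quasi-likelihood test with Benjamini-Hochberg adjustment over all 12570 genes tested), and 9 were not called. Among all genes tested 19.2% were called higher and 23.9% lower. The median log2 fold change was -1.40 over the members and -0.03 over all genes. Scaling by library totals instead of trimmed means (TMM) moved the median of all genes to 0.40 and all calls from 2417 higher and 3003 lower to 4362 and 1608, while the members became 5 higher and 19 lower with a median of -0.94.

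Against monocyte-derived cells the lower members were spread over the whole chain: 6 of 10 upper and 5 of 5 tested lower glycolysis genes, 2 of 4 transporters, Ldha, and 6 of 7 hypoxia targets. These counts include Aldoc and Adm, which had 6 and 4 UMIs in microglia and passed the count filter through monocyte-derived cells. For 7 of the lower members no microglial library reached the lowest monocyte-derived one. Of all 12570 genes tested 6.41% were both called lower and without overlap. Aldoa, the aldolase of most tissues, had 352 to 960 CPM in microglia with a median of 663 and 1035 to 1961 in monocyte-derived cells with a median of 1374, a log2 fold change of -1.54 ± 0.18 (SE). Eno1, the ubiquitous enolase, had 179 to 494 (median 320) and 587 to 1192 (median 823), a log2 fold change of -1.77 ± 0.18. Aldoc, a second aldolase, had 0 to 10.7 (median 0.903) against 11.8 to 25.7 (median 19.6). With 6 UMIs in microglia Aldoc passed the count filter through monocyte-derived cells, and its ratio of pooled levels was 0.183 with an exact 95% interval of 0.0668 to 0.399 for counting error only. Aldoa and Eno1 were lower in microglia of all 6 mice, and their 2 sets of libraries did not touch. Pfkp, the platelet-type phosphofructokinase, was lower by a log2 fold change of -2.17 ± 0.24, with a median of 19.6 in microglia and 69.7 in monocyte-derived cells. Slc2a1, Tpi1 and Pgam1 were lower by -1.59 ± 0.18, -1.62 ± 0.18 and -1.54 ± 0.18 on the same scale, also without overlap.

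The hypoxia targets Bnip3 (a mitophagy receptor), Ndrg1, Ankrd37, Egln3, Adm (the vasodilator peptide adrenomedullin) and Mif (a secreted cytokine) were called lower in microglia than in monocyte-derived cells, with overlapping ranges. Adm had 4 UMIs in microglia, passed the count filter through monocyte-derived cells and was called in 10 of 17 alternatives, and its ratio of pooled levels was 0.403 with an exact 95% interval of 0.109 to 1.04 for counting error only. Ndrg1 differed most, with a log2 fold change of -2.88 ± 0.30 and medians of 6.57 and 54.7 CPM. It rested on 18 UMIs in microglia, 14 of them in the 3 WT mice, whose values were 1.81, 2.42 and 31.8 CPM. P4ha1, a collagen prolyl hydroxylase, was the exception: it was higher in microglia of 6 of 6 mice in CPM, 97.9 to 162 (median 128) against 54.5 to 104 (median 82.7), yet its fitted log2 fold change of 0.18 ± 0.17 was not called (adjusted p = 0.401). Hk2 showed the same, at 0.37 ± 0.18 (adjusted p = 0.0757), and both were called higher with library totals (0.62 and 0.81). For Hk3, Pfkl, Pfkm, Pfkfb4 and Hif1a, none of them called, the sign of the difference turned with the scaling. Hif1a had medians of 242 in microglia and 244 in monocyte-derived cells.

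The 3 genes higher in microglia than in monocyte-derived cells did not overlap between the classes. For Pdk1 this was narrow, 33.3 against 32.9 CPM, and its counting error was not assessed. Of all 12570 genes tested 10.3% were both called higher and without overlap. Ldhb encodes the heart-type lactate dehydrogenase subunit, which favours the turn of lactate into pyruvate, and was 133 to 313 CPM in microglia with a median of 190, against 19.9 to 68.2 with a median of 37.7. Its log2 fold change was 1.97 ± 0.16 (adjusted p = 4.44e-33), while Ldha, the muscle-type subunit, was lower by -1.34 ± 0.18 (medians 451 and 730). Pfkfb3 makes fructose 2,6-bisphosphate, the activator of phosphofructokinase, and ranged from 246 to 639 in microglia (median 329) and from 75.1 to 107 in monocyte-derived cells (median 93.9), a log2 fold change of 1.49 ± 0.16 (adjusted p = 3.59e-20). Pdk1, a kinase that holds pyruvate back from oxidation in the mitochondrion, ranged from 33.3 to 62.8 (median 55.6) and from 20.9 to 32.9 (median 24.9), a log2 fold change of 0.64 ± 0.21 (adjusted p = 0.00789). All 3 were higher in microglia of 6 of 6 mice. Of 19 alternatives Ldhb was called in 17, Pfkfb3 in 19 and Pdk1 in 15. Pdk1 was not among the 2 members called higher with Microglia alone.

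**Figure D3:**
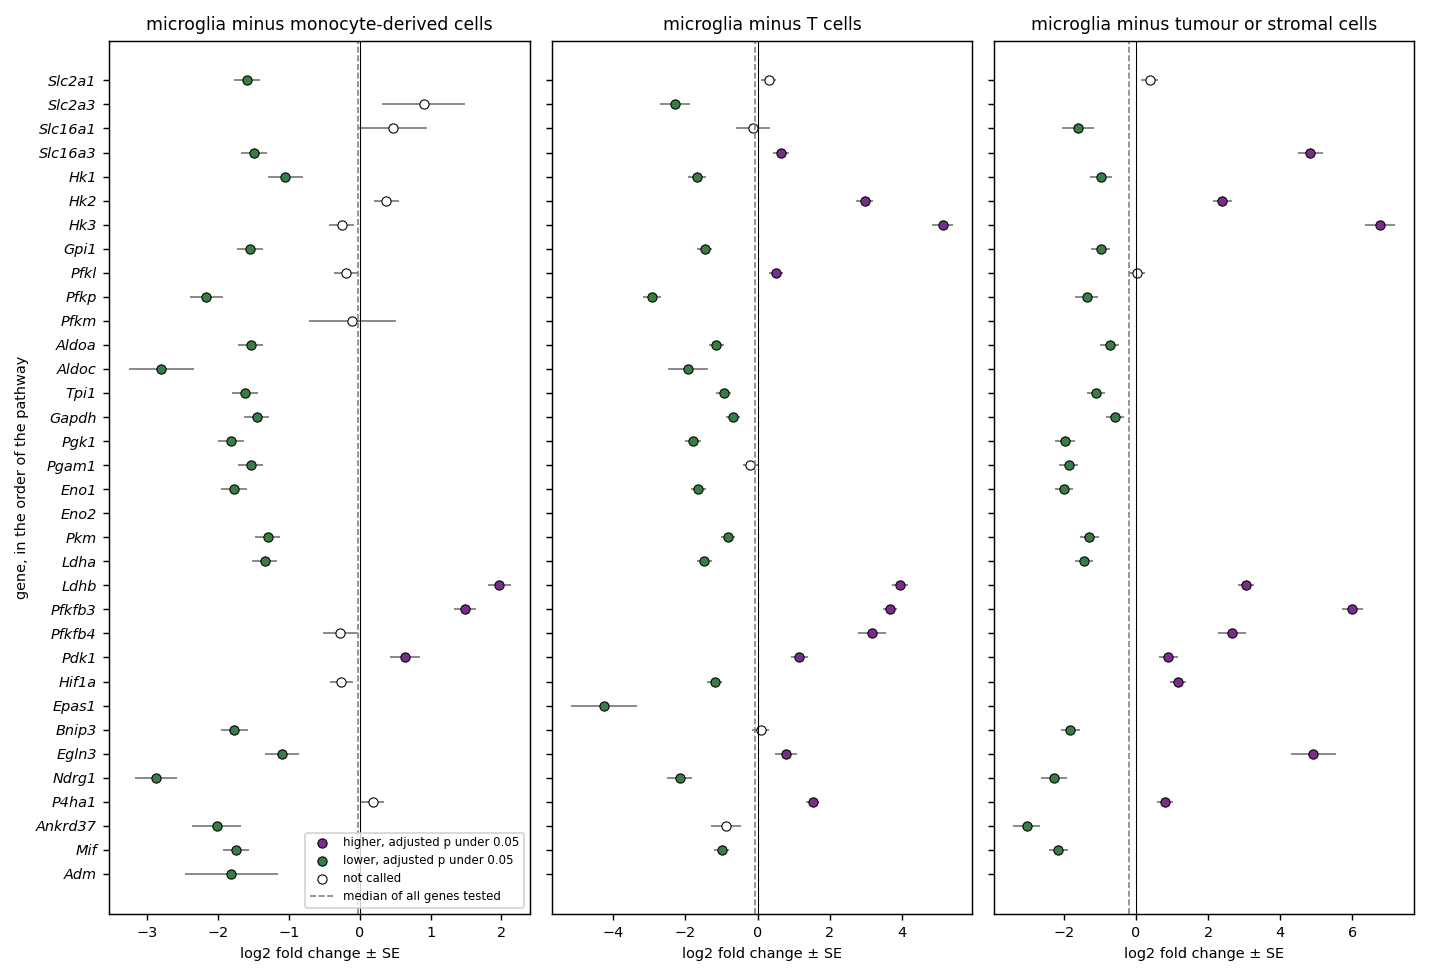
Log2 fold change with its SE of each tested gene, microglia minus the other class, in the fits with mouse as a block (6, 6 and 5 mice). Filled points passed an adjusted p of 0.05 and the dashed line is the median of all genes tested. From Aldoa to Ldha the points lie left of 0 in all 3 panels, and Ldhb, Pfkfb3 and Pdk1 lie right of it.

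Against T cells of the same 6 mice 31 members were tested, 10 were higher in microglia and 16 lower (28.8% and 31.7% of the 11167 genes tested were called higher and lower), with a median log2 fold change of -0.82 (-0.07 over all genes). The 16 include Slc2a3, Aldoc and Epas1, which had 10, 6 and 1 UMIs in microglia and passed the count filter through T cells. With library totals the median of all genes was 0.15 and all calls changed from 3216 higher and 3539 lower to 3846 and 2823, with 11 members higher and 16 lower. The higher genes were Hk2 (2.96 ± 0.23, SE), Hk3 (5.11 ± 0.29) and Pfkl among the early enzymes, all 3 regulators, Ldhb, Slc16a3, Egln3 and P4ha1. Ldhb had a median of 8.69 CPM in T cells, a log2 difference of 3.94 ± 0.21, and Pfkfb3 a median of 24.1, a log2 difference of 3.67 ± 0.20. Pfkfb4, a sister enzyme of Pfkfb3, ranged from 15.9 to 52.4 (median 37.7) in microglia and from 1.88 to 3.95 (median 2.92) in T cells, a log2 difference of 3.15 ± 0.38. Pdk1 and P4ha1 differed by 1.15 ± 0.24 and 1.52 ± 0.19. Except Pfkl, Slc16a3 and Egln3, these genes did not overlap between the classes, which makes 7 members. Of all 11167 genes tested 17.5% were both called higher and without overlap.

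The members lower in microglia than in T cells without overlap were, by measured values, Pfkp, Slc2a3, Hk1, Eno1, Ldha and Gpi1 (16.9% of all genes tested were called lower without overlap). Pfkp ranged from 0 to 48.2 CPM in microglia (median 19.6) and from 123 to 164 in T cells (median 144), a log2 fold change of -2.92 ± 0.25. Ldha ranged from 250 to 636 (median 451) against 672 to 1194 (median 976), at -1.47 ± 0.20. Gpi1, the isomerase after hexokinase, ranged from 97.9 to 391 (median 185) against 412 to 575 (median 492), at -1.46 ± 0.21. In each of these the highest microglial library lay below the lowest T cell library. Hk1 and Eno1 were lower by -1.67 ± 0.26 and -1.63 ± 0.21 on the log2 scale.

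Of the HIF alpha subunit genes Hif1a was lower in microglia than in T cells. It ranged from 198 to 455 CPM in microglia (median 242) and from 392 to 673 in T cells (median 482), a log2 fold change of -1.19 ± 0.20 (adjusted p = 1.12e-07) in 6 of 6 mice. Its highest mean levels among the 23 types were 939 ± 182 in CD4+ T cells (Th1) and 914 ± 137 in Tregs (SD, n = 6). Epas1, which passed the count filter through T cells, was close to absent from microglia, with 1 UMI among 1762965, against 337 among 51880788 in T cells of the same 6 mice, a ratio of 0.0873 with an exact 95% interval of 0.0022 to 0.49 that covers counting error only. Among the 23 types its highest mean level was in Gamma-Delta T cells, at 53.1 ± 24.3 (SD, n = 4), from 26 UMIs.

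Against tumour or stromal cells, in 5 mice, 28 members were tested, 10 were higher in microglia and 16 lower (30.2% and 36.5% of the 10821 genes tested were called higher and lower), with a median log2 fold change of -0.86 (-0.19 over all genes, -0.34 with library totals). Called lower were 5 of 5 tested genes of lower glycolysis, 5 of 8 of upper glycolysis and 4 of 6 hypoxia targets, and called higher were 2 of 8 of upper glycolysis, 2 of 6 hypoxia targets and 3 of 3 regulators. Mif was 176 in KO replicate 2, 308 in KO replicate 4, and 513, 525 and 703 CPM in microglia of WT replicates 1 to 3, and in the same order 1716, 2562, 1686, 2072 and 2347 in tumour or stromal cells, a log2 fold change of -2.15 ± 0.26. Ankrd37 was 0, 0, 10.8, 7.25 and 7.95 in microglia and 34.9, 122, 43.0, 76.6 and 81.9 in tumour or stromal cells, at -3.03 ± 0.38. Ankrd37 rested on 12 UMIs in these microglia, and its ratio of pooled levels was 0.109 with an exact 95% interval of 0.0558 to 0.191 for counting error only. Mif was lower in microglia of 5 of 5 mice, and Ankrd37 in the 4 mice other than KO replicate 2, where 0 UMIs allow up to 58.7 CPM against 34.9 in tumour or stromal cells. Eno1, Pgk1, Pgam1 and Ldha were lower by -1.99 ± 0.26, -1.98 ± 0.28, -1.86 ± 0.26 and -1.45 ± 0.26, and Ndrg1 and Slc16a1, a lactate and pyruvate transporter, by -2.27 ± 0.36 and -1.61 ± 0.44, none with overlap. Ndrg1 and Slc16a1 rested on few UMIs, 18 and 14 in the microglia of the 6 mice with at least 20 such cells. Ndrg1 reached 31.8 CPM in 1 WT mouse, where the WT median was 2.42. In all, 12 members were called lower without overlap, and of all genes tested 30.9% were both called lower and without overlap.

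7 members were called higher in microglia than in tumour or stromal cells without overlap, and of all genes tested 19% were. Pfkfb3 was 391, 639, 296, 246 and 358 CPM in microglia and 11.8, 7.57, 3.82, 6.05 and 2.52 in tumour or stromal cells in the mouse order above, a log2 fold change of 5.996 ± 0.28. Hk3 was 58.7, 111, 61.4, 101 and 95.4 in microglia and 0.983, 0.841, 0, 0.672 and 0.84 in tumour or stromal cells. In tumour or stromal cells Pfkfb3 had 52 UMIs in all, while Hk3 had 6 and passed the count filter through microglia. The same cells held 89.0 ± 16.4 CPM of summed microglia markers and 257 ± 46.3 of summed monocyte-derived markers (SD, n = 5), with none of the 9 and 9 markers at 0, and the part of RNA from other cells in these low levels was not tested. The ratio of pooled Hk3 levels, tumour or stromal cells over microglia of the same 5 mice, was 0.00861 with an exact 95% interval of 0.0031 to 0.0192 for counting error only. Egln3, with 9 UMIs in tumour or stromal cells, had a ratio of 0.0405 (0.0174 to 0.0843). Ldhb, Pfkfb4, Hk2 and Hif1a differed by log2 fold changes of 3.06 ± 0.23, 2.67 ± 0.39, 2.40 ± 0.26 and 1.16 ± 0.23. Slc16a3, the lactate exporter of glycolytic cells, differed by 4.83 ± 0.35, with 0 UMIs in the microglia of KO replicate 2 and 55.5 to 103 CPM in the others. The classes differed in more than type: 74.2% of tumour or stromal cells and 17.9% of microglia were annotated as in S or G2M phase.

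The 2 microglia annotations were compared in the 3 WT mice. Over the mice of both genotypes Microglia (163 cells) had a median of 6226 UMIs per cell and 2.06% mitochondrial UMIs, and Microglia (Low-quality/activated) (251 cells) 2222 and 4.77%. WT replicates 1 to 3 held 44, 48 and 39 cells of Microglia and 69, 44 and 57 of Microglia (Low-quality/activated). Only the 3 WT mice had at least 20 cells of both. In them 13 of the 34 members were higher in Microglia and 3 lower without overlap, and 18 overlapped. Among the 9826 genes with at least 10 UMIs in these cells, 28 members with them, 15.2% were higher and 26.6% lower without overlap. The 13 were Slc16a3, Gpi1, Aldoa, Tpi1, Gapdh, Pgk1, Pgam1, Eno1 and Pkm, both lactate dehydrogenase genes, Bnip3 and Mif. Eno1 was 643, 432 and 629 CPM in Microglia of WT replicates 1 to 3 and 145, 109 and 133 in Microglia (Low-quality/activated). Aldoa was 1233, 945 and 1194 against 210, 341 and 331, and Ldhb 221, 307 and 242 against 96.9, 38.9 and 87.7. The 3 genes that ran the other way were Pfkfb3, at 119, 190 and 178 against 646, 418 and 838, Hk2, at 48.9, 83.5 and 65.5 against 145, 195 and 97.4, and Hif1a, at 261, 182 and 222 against 296, 360 and 356. No test was made, since the annotations were drawn from these cells' RNA. The summed level of 10 dissociation stress genes was 18979 ± 2425 CPM in microglia (SD, n = 6), 13817 ± 3160 in monocyte-derived cells (n = 7), 13389 ± 3173 in T cells (n = 7) and 3343 ± 980 in tumour or stromal cells (n = 5), and its part in these differences was not tested.

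**Figure D4:**
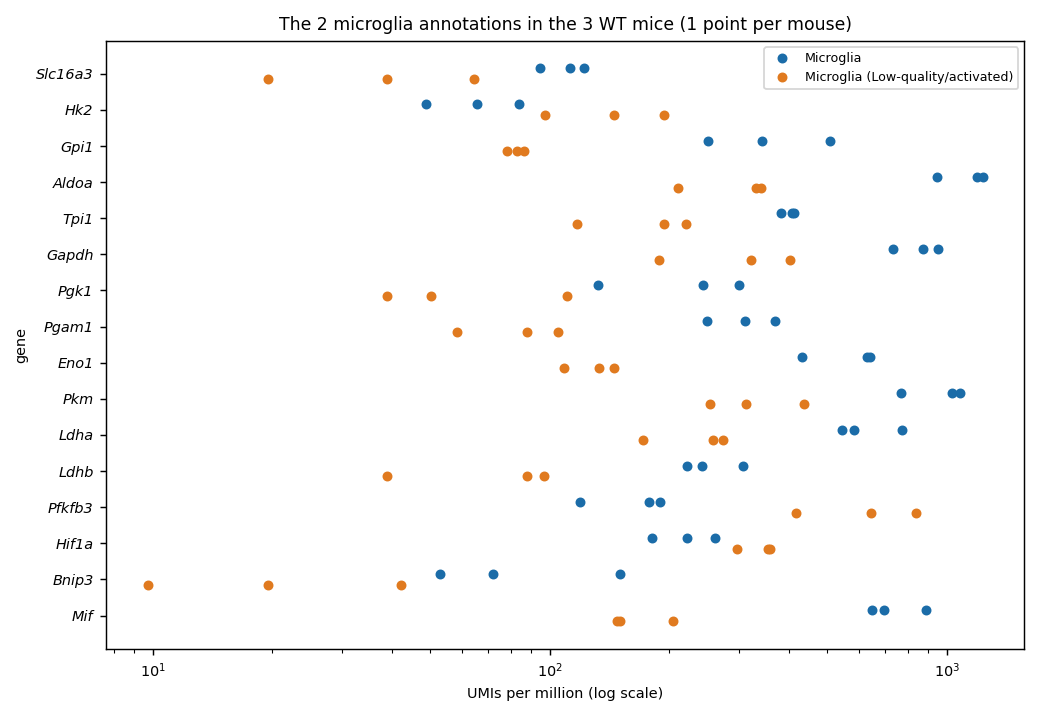
Level in CPM (horizontal axis, log scale) of the 16 genes whose values in the 3 WT mice did not overlap between the 2 microglia annotations, 1 point per mouse and annotation. Pfkfb3, Hk2 and Hif1a are higher in Microglia (Low-quality/activated), and the other 13 genes are higher in Microglia.

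The class comparisons were then repeated in the 3 WT mice, which alone had enough cells of both annotations. With all microglia of these mice the members were 3 higher and 19 lower against monocyte-derived cells (median -0.99), 10 and 16 against T cells (median -0.40) and 11 and 13 against tumour or stromal cells (median -0.29). With Microglia alone they were 2 higher and 17 lower against monocyte-derived cells with a median of -0.57, 13 higher and 11 lower against T cells with a median of 0.00, and 13 higher and 7 lower against tumour or stromal cells with a median of 0.16. All genes gave 1810 higher and 2597 lower of 13058, 2804 and 2730 of 10330, and 3175 and 3499 of 10213 with all microglia, and 985 higher and 1524 lower of 12695, 2197 and 2271 of 9763, and 2669 and 2939 of 9681 with Microglia alone, with medians of -0.05, -0.03 and -0.11 and of -0.08, -0.10 and -0.15. With Microglia (Low-quality/activated) alone in the same mice they were 2 and 20 with a median of -2.25, 7 and 17 with -1.78, and 9 and 15 with -1.84, where all genes gave 1695 and 2999 of 12522, 2339 and 3055 of 9969, and 2534 and 3424 of 9678, with medians of -0.25, -0.19 and -0.33. Pkm and Gapdh against T cells, and Gpi1, Aldoa and Gapdh against tumour or stromal cells, were lower in all microglia and above 0 in Microglia alone (3 WT mice), where Aldoa was called higher (0.44, adjusted p = 0.0353). Ldhb and Pfkfb3 were higher than in all 3 classes with Microglia alone, by 2.72, 4.503 and 3.79 and by 0.55, 2.67 and 5.74 on the log2 scale. In Microglia (Low-quality/activated) alone (5 mice) Ldhb differed from monocyte-derived cells by 0.27 and was not called (adjusted p = 0.462), nor was it in this annotation of the WT mice alone (0.503, adjusted p = 0.229).

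The other genes of the pathway came from 2 further lists. Of 44 other genes of glycolysis, the pentose phosphate path and pyruvate use, 34, 30 and 29 were tested against monocyte-derived, T and tumour or stromal cells. Of these 6, 8 and 11 were called higher in microglia and 10, 8 and 9 lower, with median log2 fold changes of -0.36, -0.18 and -0.14, beside 19.2%, 28.8% and 30.2% of all genes tested called higher and 23.9%, 31.7% and 36.5% lower. Slc2a5, the fructose transporter and a known microglial gene, stood out, at 32.4 ± 13.02 CPM in microglia (SD, n = 6) and 0.172 ± 0.271 in monocyte-derived cells (SD, n = 7). Tumour or stromal cells had 0 UMIs of it, which allows up to 0.369 CPM for counting error only, so that over the 5 mice together Slc2a5 was at least 110-fold higher in microglia. Slc2a6 and Slc2a9, 2 further sugar or urate transporters, were higher than in monocyte-derived cells by log2 1.23 ± 0.22 and 1.51 ± 0.34 without overlap. Gpd2, the mitochondrial glycerol phosphate dehydrogenase, was lower in microglia than in all 3 classes, by -2.56 ± 0.34, -3.05 ± 0.35 and -3.24 ± 0.37, without overlap.

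Of 36 other hypoxia genes 35 were found in the matrix (not Ero1a by that name), and 29, 26 and 28 were tested. Called higher in microglia were 3, 9 and 10, and lower 14, 9 and 8, with medians of -1.05, -0.08 and 0.07, beside the same shares of all genes. Vegfa, the main angiogenic factor, was 58.7 to 118 CPM in microglia (median 87.5), 291 to 584 in monocyte-derived cells (median 440.02) and 12.0 to 18.3 in T cells (median 16.4). It was lower than in monocyte-derived cells by -2.74 ± 0.20 and higher than in T cells by 2.27 ± 0.22, without overlap in either case. Plod2, a collagen lysyl hydroxylase, had 0 UMIs in the microglia of the 5 mice and 285 CPM in tumour or stromal cells, at least 150-fold more than the 1.90 CPM that 0 UMIs allow.

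Genotype was compared in each class, KO minus WT. No member was called in microglia (22 tested, 3 KO and 3 WT mice), monocyte-derived cells (32 tested, 4 and 3), T cells (32 tested, 4 and 3) or tumour or stromal cells (26 tested, 2 and 3), beside 0.0415%, 0%, 0% and 0.0287% of all genes called by edgeR. At an unadjusted p under 0.05 stood 12, 0, 5 and 3 members, beside 11.9%, 5.66%, 6.56% and 8.57% of all genes, and DESeq2 also called none. In microglia the 12 became 0 of 13 in Microglia (Low-quality/activated) alone, beside 167 of 2350 genes. They became 6 of 21 in Microglia alone with a minimum of 10 cells, beside 427 of 4648 genes. With the replicate block they became 4 of 23, beside 297 of 5245. In T cells the 5 ranged from 2 (without KO replicate 2), beside 739 of 12699 genes, to 13 (without KO replicate 1), beside 1029 of 13235. In monocyte-derived cells the 0 became 4 without KO replicate 1, beside 1291 of 12417 genes. In tumour or stromal cells the 3 became 2 without WT replicate 3, beside 554 of 10143 genes, and 4 without WT replicate 2, beside 1091 of 10461. With a minimum of 10 cells they became 6, beside 984 of 9974 genes. No count is given here for fits without 1 of the 2 KO mice, since 1 KO mouse is then left. The median log2 fold change of the members was -0.58, -0.02, -0.27 and 0.24. With 1 mouse left out it ranged from -0.87 to -0.44 in microglia, from -0.29 (without KO replicate 1) to 0.12 (without KO replicate 3) in monocyte-derived cells, from -0.47 (without KO replicate 1) to -0.14 (without KO replicate 3) in T cells, and from -0.13 (without KO replicate 4) to 0.58 (without KO replicate 2) in tumour or stromal cells, where 1 KO mouse was then left and is assumed to vary like the WT mice. In microglia 8 members had lower values in all 3 KO than in all 3 WT mice, Slc16a3, Gpi1, Aldoa, Tpi1, Pgk1, Eno1, P4ha1 and Mif, a pattern with lower KO values found in 9.94% of the 4820 genes tested. Aldoa was 531, 352 and 450 CPM in KO replicates 1, 2 and 4 and 890, 795 and 960 in WT replicates 1 to 3, a log2 difference of -0.97 ± 0.25 (SE, adjusted p = 0.088). Pgk1, the first ATP-making enzyme of the path, was 102, 26.1 and 57.4 against 178, 109 and 248, at -1.34 ± 0.38 (adjusted p = 0.14), and rested on 19, 1.33 and 10.33 UMIs in the KO mice. Pfkfb3 was 300.1, 391 and 639 against 296, 246 and 358, at 0.57 ± 0.27 (adjusted p = 0.405).

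The genotype difference in microglia was then tested against that in monocyte-derived cells of the same 6 mice, as a class by genotype term. 8 of 32 members passed, all with the KO minus WT difference more negative in microglia, where 0.414% of the 12570 genes tested were called (0.263% lower): Gpi1 (-1.23 ± 0.31), Aldoa (-1.25 ± 0.28), Tpi1 (-1.14 ± 0.30), Pgk1 (-1.80 ± 0.35), Eno1 (-1.24 ± 0.30), Pkm (-1.18 ± 0.28), Bnip3 (-1.65 ± 0.44) and Mif (-1.11 ± 0.29), log2 with SE. Pgk1 had the lowest adjusted p, 0.00082. In the microglia of the 3 KO mice Bnip3 rested on 13.5 UMIs and Pgk1 on 30.67, against 198 for Aldoa. The median of all genes in this term was -0.11, and 0.03 with library totals, under which 6 members were called. All genes then gave 40 higher and 23 lower, against 19 and 33 in the main fit. In monocyte-derived cells Pgk1 was 534, 203, 182 and 327 CPM in KO replicates 1 to 4 and 250, 339 and 362 in WT replicates 1 to 3, so the KO mice lay on both sides of the WT mice. KO replicate 1 gave the highest monocyte-derived value of 16 of the 34 members and had the deepest of these cells, with a median of 12903 UMIs per cell.

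**Figure D5:**
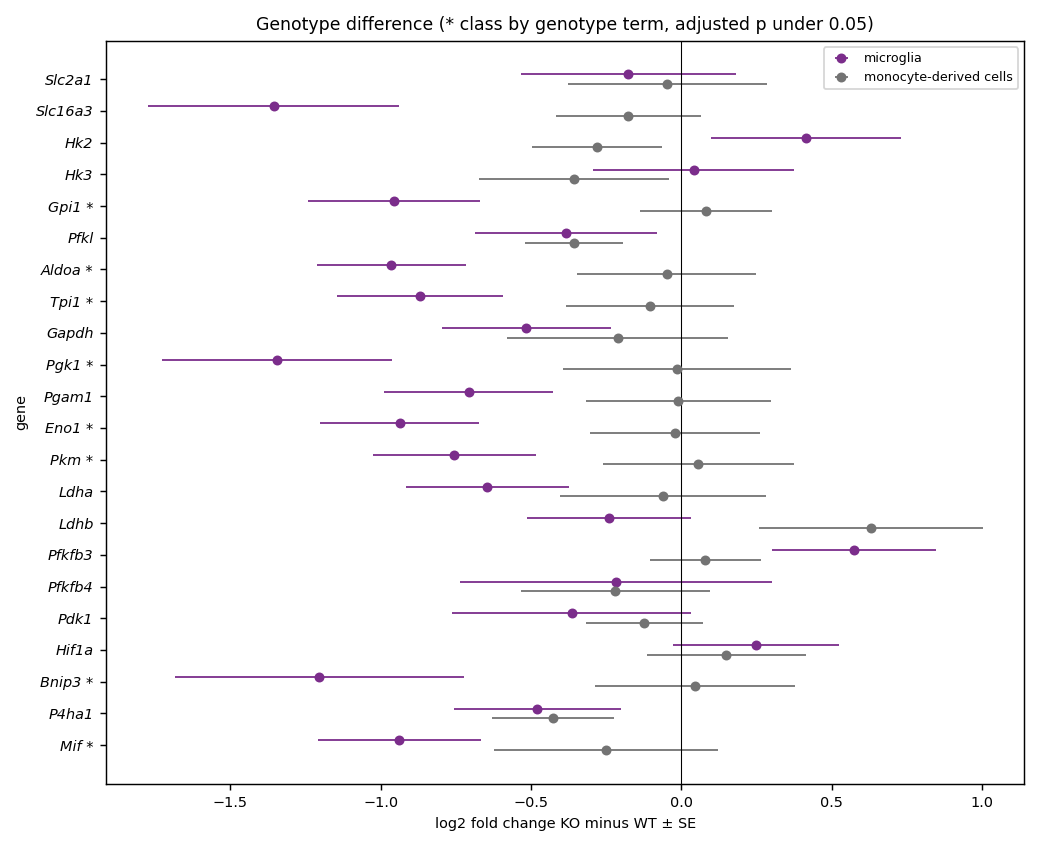
Log2 fold change KO minus WT with its SE in microglia (3 KO and 3 WT mice) and in monocyte-derived cells (4 and 3) for the 22 genes tested in microglia. The genes with a star, 8 in all, had a class by genotype term with an adjusted p under 0.05. No point on its own passed the adjusted threshold.

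The 8 calls rested on few mice: 1 member was called without KO replicate 1, 0 without WT replicate 1, 2 without WT replicate 3, and 1 when KO replicate 3 was added by lowering the minimum to 10 cells. The calls over all genes fell as well, from 52 to 13, 11, 27 and 26. The median of the term over the members was -0.67 and became -0.95, -0.45, -0.77 and -0.87 in these fits. The make-up of the microglia was not tested between genotypes, and it rested on 13 to 49 cells per KO mouse and 92 to 113 per WT mouse. Microglia (Low-quality/activated) were 66.7%, 66.7%, 100% and 69.4% of the microglia in KO replicates 1 to 4 and 61.1%, 47.8% and 59.4% in WT replicates 1 to 3. Within Microglia (Low-quality/activated) alone 0 members were called (Pgk1 at -1.25), and within Microglia alone, with a minimum of 10 cells, 1 was (Pgk1, at -1.61 with adjusted p = 0.0101). The medians of the term over the members were -0.66 and -0.57 in these fits, and 6 of 12415 and 30 of 11597 genes were called. The T cell marker sum was 75.0 to 156 CPM in KO microglia and 16.2 to 43.5 in WT microglia, with none of the 9 markers at 0 in either group. The sum of the 9 monocyte-derived markers was 529 to 662 in KO and 347 to 422 in WT microglia, with 1 of the markers at 0 in KO, and that of the 9 microglia markers 5428 to 8045 and 7634 to 10420. The part of these in the genotype difference was not tested. By Xist and Y-linked genes 2 of 4 KO mice (replicates 1 and 2) and 1 of 3 WT mice (replicate 3) were female.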

How the data were processed

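Live CD45+ and/or CD11b+ cells of 7 mice (4 KO, 3 WT) were profiled with 1 droplet 5' library per mouse. The authors deposited a matrix of expected counts, UMIs per gene and cell, unscaled. Values that were not whole (tolerance 0.0001) made up 7.51% of the non-zero entries and 8.7% of all UMIs. By gene this share was 39.0% for Eno1, 28.5% for Pgam1, 18.2% for Pgk1, 16.8% for Mif and 6.35% for Gapdh. These shares count each such value in full. Rounding down in each cell removed 3.08%, 7.09%, 3.32%, 0.887% and 0.37% of the UMIs of these genes, in the same order. No source used here states how these values arose, so how uncertain the levels of these genes are is not known. Per the submitters' processing notes, FastQC 0.11.5 and STARsolo (STAR 2.7.10a) were used with build mm10. How cells were filtered and named and doublets handled is not given in the sources used here, and no doublet caller was run. The deposited cell table gives mitochondrial content as a percent of UMIs.

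For each mouse and class the UMIs were added up and rounded to whole numbers, with at least 20 cells. Whole UMI counts had been planned for, and rounding was adopted when values that are not whole were seen. edgeR 4.0.16 (R 4.3.3) fitted the robust quasi-likelihood model with TMM scaling and filterByExpr, with mouse as a block between classes and without it between genotypes, and p-values were adjusted over all genes tested with a threshold of 0.05. Printed levels (CPM) use library totals, not TMM. Alternatives were library totals, DESeq2 1.42.0, no filter, values rounded down, a minimum of 10 cells, each mouse left out, other sub-type choices, sex as a term, equal cell numbers and the replicate block. The code was tested on simulated data. Members with values per mouse were those called without overlap, up to 8 in each direction by size, with the HIF alpha, lactate dehydrogenase, hexokinase and glucose transporter genes. Other pathway genes are named up to 4 in each direction, and 1 that the rule selects is not reported here. The members and lists were chosen with earlier results of these data known. Replicate numbers were not used to pair the mice in the main fits, since the labels give no shared batch. Same-numbered KO and WT mice correlated between -0.215 and 0.133 in their deviations. For number 1 this was above the best other pairing, 0.133 against 0.096 in monocyte-derived cells and 0.066 against 0.0046 in T cells. For numbers 2 and 3 it was below. With so few mice these values cannot decide whether equal numbers share a batch. Fewer cells of a type do not enter a CPM level, but such a level cannot show the RNA content of a cell. Levels of different genes are not compared, as 5' UMIs are not scaled by length.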

Additional observations from a re-analysis of the deposited data

Results flagged for a closer look

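In 5 of 68 sets of values of the 4 KO mice (34 genes in 2 classes) 1 mouse lay far from the other KO mice, where chance flags about 1 in 20. In each of the 5 it was KO replicate 1. In monocyte-derived cells it had 646 CPM of Gpi1, 1873 of Gapdh and 47.4 of Ankrd37, and in T cells 0.940 of Eno2 and 16.5 of Ankrd37, each the highest of the 4 KO mice.

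For 8 members the KO minus WT difference was not the same in microglia as in monocyte-derived cells by the class by genotype term of edgeR, as log2 differences of -1.23 for Gpi1, -1.25 for Aldoa, -1.14 for Tpi1, -1.80 for Pgk1, -1.24 for Eno1, -1.18 for Pkm, -1.65 for Bnip3 and -1.11 for Mif. Of these differences, that of Gpi1 turned to 0.22 in Microglia (Low-quality/activated) alone.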

How the results depend on the processing

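The counts of members called in the 3 class comparisons stayed within 1.5 times of 23, 26 and 26 under every alternative run, from 19 to 24 against monocyte-derived cells, 23 to 27 against T cells and 20 to 27 against tumour or stromal cells. These totals join both directions: against tumour or stromal cells 10 higher and 16 lower became 13 and 7 with Microglia alone and 11 and 13 with all microglia of the same 3 WT mice. Leaving out 1 mouse gave 22 to 23, 24 to 26 and 21 to 26. All genes then gave 4475 to 5200, 6238 to 6878 and 6285 to 7016 calls, against 5420, 6755 and 7217 in the main fits. With Microglia alone against monocyte-derived cells the 19 members stood beside 2509 of 12695 genes, where the main fit called 5420 of 12570. Of the single members called, 18 of 23, 17 of 26 and 15 of 26 were called under every alternative. Signs turned for Slc16a3 against T cells in Microglia (Low-quality/activated) alone (-0.49, and -0.49 in WT mice alone), where in WT mice Pfkl (-0.021) and Egln3 (-0.49) turned too, and in Microglia alone for Gapdh (0.028) and Pkm (0.0064) against T cells and Gpi1 (0.067), Aldoa (0.44) and Gapdh (0.26) against tumour or stromal cells. Gpi1 also turned in the class by genotype term (0.22, Microglia (Low-quality/activated) alone). These sub-type and WT alternatives, except Microglia alone against monocyte-derived cells, were chosen after seeing the data, and the cause was not tested.

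For KO against WT no member was called under the alternatives run except without the low-count filter (4 in microglia, 1 in tumour or stromal cells) and with sex as a term (1 in microglia). Over all genes these fits called 46 of 16892, 167 of 20667 and 10 of 5549. The main fits called 2 of 4820 in microglia and 3 of 10469 in tumour or stromal cells. The 8 members of the class by genotype term became 1 with a minimum of 10 cells, 0 in Microglia (Low-quality/activated) alone, 1 in Microglia alone with a minimum of 10 cells, and 0 to 8 with 1 mouse left out. The median of the term over the members lay between -0.95 and -0.45 in these fits. Microglia alone could not be fitted for genotype with 20 cells, since no KO mouse had as many. With the replicate block 0 members were called in microglia, monocyte-derived cells and T cells, and no such fit could be made in tumour or stromal cells. Without the mouse as a block the class comparisons (no replicate block) gave 22, 24 and 22 members of 29, 29 and 26 tested. All genes there gave 4447 of 10467, 5637 of 9111 and 6147 of 9178. Depth limits the microglia most, with 51086 to 553957 UMIs per mouse in the fits.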
